A study of Chlorocebus sabaeus with 18 samples.

Results

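The exon features described here are 394 of 241965 array features whose value, taken relative to the value of their own gene, was higher with overexpressed TRA2A both without and with a CGG repeat construct. A feature was either an exon region or an exon-exon junction, which is read by probes that span the splice between a pair of exons. Its relative value was its log2 value minus that of the gene it belongs to on the same array. Features were chosen by these values: the mean log2 value over the 18 arrays had to be above the median of such means over the whole exon table (7.462, taken to 2 decimals), and the mean relative value had to rise by at least 0.75 in both overexpression comparisons, with the features of TRA2A itself left out. By the same rule with the sign turned, 765 features fell. Because the 2 overexpression comparisons chose the features, their rises are given as a description with no test, and tests were run only on comparisons with TRA2A knockdown, of which those with CTL or CGG cells share these baseline arrays with the rule.

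The cells were COS-7, a fibroblast-like kidney line of the green monkey Chlorocebus sabaeus, hybridised to Clariom D arrays, whose probes were designed on human transcripts. There were 6 groups of 3 arrays. GFP_TRA cells overexpressed TRA2A, siTRA cells had TRA2A knocked down, and CTL cells were the controls, for which the labels give no transfection. The condition labels of the 3 CTL arrays read COS-7, COS-6 and COS-5, while their titles and the cell line label give COS-7, so they were taken as 1 control group by title. CGG_TRA cells carried both a transfected expansion of 60 CGG repeats from the 5' untranslated region of FMR1 and overexpressed TRA2A, CGG_siTRA cells carried the expansion with knockdown of TRA2A, and CGG cells carried the expansion alone. GFP stands in the titles of the overexpressing cells without the expansion and in those of no other group, so that GFP or its vector and TRA2A cannot be told apart in that comparison. No group held an empty vector or a control siRNA by its label, so transfection and TRA2A cannot be told apart either in the comparisons with CTL cells. In the comparisons with CGG cells, the added vector or siRNA and TRA2A cannot be told apart. The titles mark CGG array 1 and siTRA array 3 as rehybridised. The labels do not tell whether the 3 arrays per group stem from separate cultures, so p-values measure the spread between arrays, which may be technical.

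TRA2A is an RNA-binding protein of the Tra2 family, which carries arginine-serine-rich domains and binds purine-rich sites in exons. Such proteins are best known for promoting the inclusion of exons whose splice sites are weak, and their own messages are subject to the same control. An exon that is included more often gives more signal at its exon region and at the junctions on its sides relative to the rest of its gene, and a junction that skips an exon gives less. An array measures the brightness of a probe and does not count splice events.

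The label of overexpression held in the data. At the gene level TRA2A had log2 values of 18.70, 18.39 and 18.50 in GFP_TRA arrays and 11.40, 12.04 and 11.20 in siTRA arrays, against 14.65, 14.68 and 14.54 in CTL arrays. It had 17.16, 17.11 and 17.22 in CGG_TRA arrays and 11.63, 11.96 and 11.88 in CGG_siTRA arrays, against 14.49, 14.51 and 14.71 in CGG arrays. No arrays of the groups compared overlapped. Array medians at the exon level lay between 7.37 and 7.54, and 3 arrays per group limit the precision. Of the marker lists checked at the gene level, 7 fibroblast-like genes had mean log2 values between 4.48 (THY1) and 16.2 (SPARC), and 6 epithelial genes between 6.16 (KRT19) and 13.99 (KRT8). The 5 leukocyte genes lay between 4.12 and 6.20, the 4 endothelial genes between 3.25 and 6.66, the 4 neuronal genes between 4.52 and 9.89 (SYT1) and the 3 erythroid genes between 3.70 and 6.99, beside a median of 4.16 over all transcript clusters.

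The rising features were 0.163% of the features tested by the rule and the falling ones 0.316%. A rise of 0.75 in GFP_TRA over CTL cells alone was seen for 5751 features, and in CGG_TRA over CGG cells alone for 6567, and the 394 that rose in both were 6.85% of the count without the expansion and 6.0% of that with it. The falls numbered 15520 and 7907, and the 765 in both were 4.93% and 9.67% of these. Over all 241992 features, those of TRA2A included, 2.38% rose by 0.75 in GFP_TRA over CTL cells and 2.72% in CGG_TRA over CGG cells, and since the rule used these rises nothing is read from them. The excess of falls over rises did not hold in every setting. It held with quantile normalization (482 rose and 700 fell) and with any single array of the overexpression comparisons left out. All features together had median relative changes of -0.10 and -0.06 in the same 2 comparisons, and their part in the excess was not tested. After each comparison was centred on its median, 577 features rose and 457 fell, and with the median feature of a gene in place of the gene value 480 rose and 337 fell. The count of rising features was 607 without CTL array 1 and 632 without CGG array 2, and the count of falling ones 1272 without CTL array 3. Without CTL array 2 it was 301 rising features, of which 200 were among the 394.

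**Figure D1:**
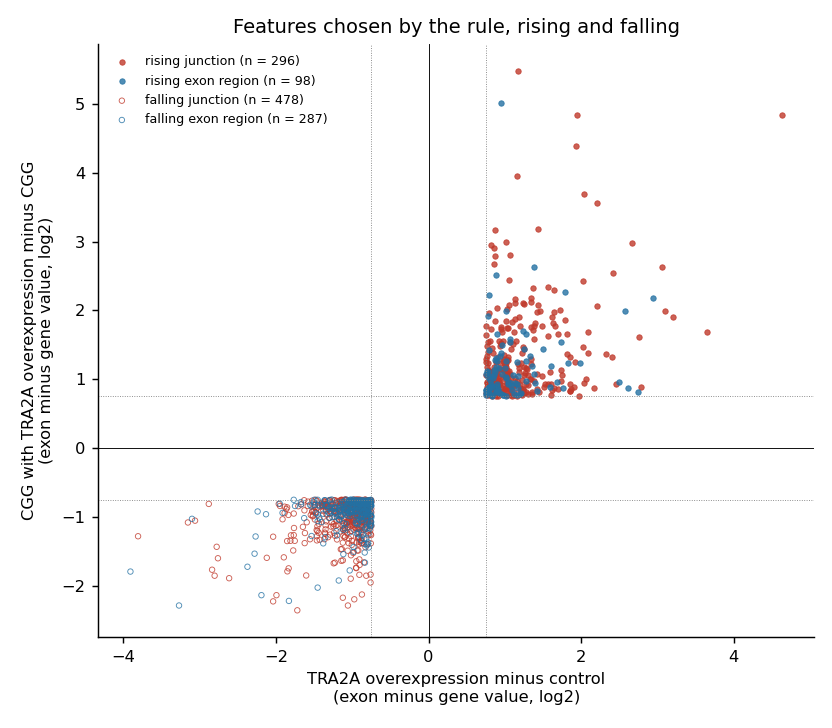
Change of the relative value (exon feature minus gene, log2) in GFP_TRA minus CTL cells on the x axis and in CGG_TRA minus CGG cells on the y axis, for the 394 rising (filled) and 765 falling (open) features, with junctions in red, exon regions in blue and dotted lines at 0.75 on either side of 0. The single point far to the right is the junction of MVD, with rises of 4.63 and 4.84, and most other rising features lie close to the threshold.

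Junctions made up most of the rising features. They were 296 of 394, or 75.1%, against 478 of 765 falling features, or 62.5%, and 97791 of all 241965 features, or 40.4%. Put the other way, 0.303% of all junctions and 0.0680% of all exon regions rose, while 0.489% of junctions and 0.199% of exon regions fell. Junction features also varied more between arrays of 1 group. The 6 knockdown arrays entered the rule only through the mean level over the 18 arrays. In them the median standard deviation (SD) within groups was 0.37 for junctions and 0.28 for exon regions over all features. The part of this spread in the share of junctions was not tested.

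The rising features were dim. Their median log2 level was 8.76, against 9.51 for falling features and 10.54 for all features. Of the dimmest junctions, with means below 8, 0.760% rose, and of the brightest, with means of 14 and above, 0.0126% did. Exon regions went the same way, with 0.130% in the dimmest class and 0.00947% in the brightest. For falling features the order was not the same at the low end, since the share of junctions was 0.626% in the dimmest class and 0.739% in the next. The rising features also spread more between arrays of 1 group, with a median SD of 0.67 in the knockdown arrays, against 0.47 for falling features and 0.31 for all. They lay below the value of their gene in 231 of 394 cases (58.6%), against 34.2% of all features.

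**Figure D2:**
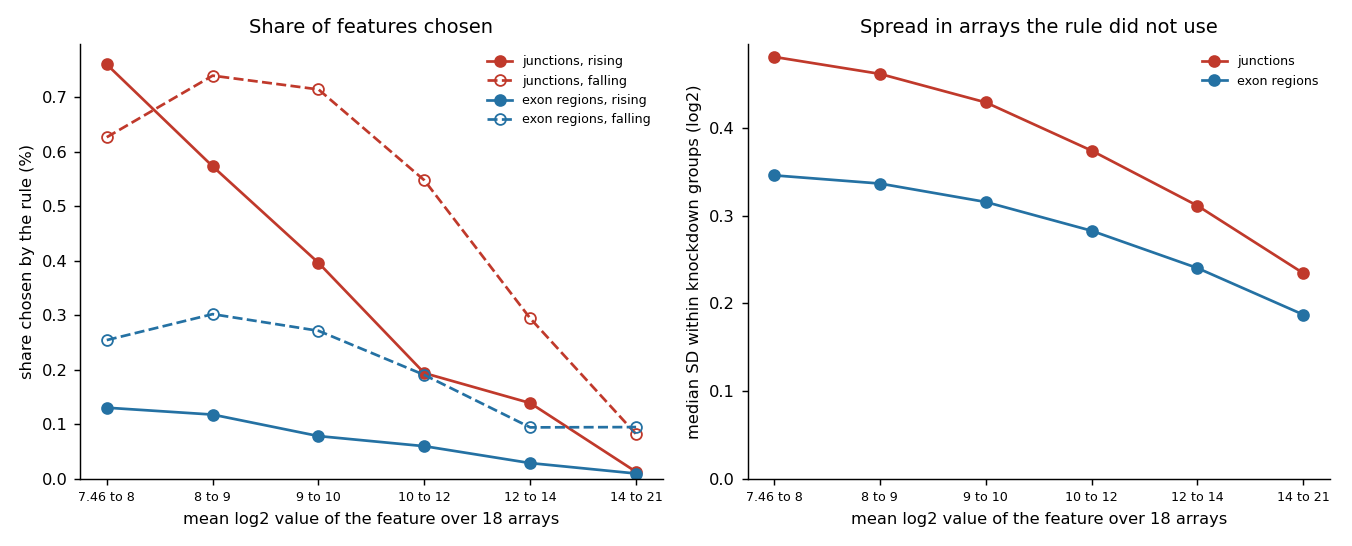
Left, share of junctions (red) and exon regions (blue) that rose (filled, solid) or fell (open, dashed) by the rule, in percent, by the mean log2 value of the feature over 18 arrays. Right, median SD of the relative value within the siTRA and CGG_siTRA groups in the same classes, where junctions lie above exon regions throughout and both spread less as the level rises.

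In the arrays that chose them, the groups of the rising features mostly overlapped. All 3 GFP_TRA arrays lay above all 3 CTL arrays for 148 features (37.6%), and 4.93% of all features tested did so. All CGG_TRA arrays lay above all CGG arrays for 157 (39.8%), against 4.58% of all. Both held for 69 features (17.5%), beside 0.178% of all features and, downward, 288 of the 765 falling features (37.6%). The downward share of all features is not given here. Since these arrays chose the features, nothing is read from the differences to all features. A single baseline array was often the low point. CTL array 2 was the lowest of its group for 248 rising features (62.9%), while over all features it was the lowest for 30.5%. CGG array 2 was the highest of its group for 233 (59.1%), against 43.8% of all features, and CGG_TRA array 2 for 191 (48.5%), against 37.2%.

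By the smaller of its 2 rises, the leading feature was a junction of MVD (JUC1600066821.hg.1), which encodes mevalonate diphosphate decarboxylase, an enzyme of cholesterol synthesis. Its relative value was 7.32, 7.40 and 7.31 in GFP_TRA arrays, against 3.88, 1.92 and 2.34 in CTL arrays. It was 5.80, 5.91 and 6.21 in CGG_TRA arrays, against 0.86, 1.58 and 0.95 in CGG arrays. Neither pair of groups came near to overlapping, and the rises of 4.63 and 4.84 were several times the SD of 0.05 to 1.03 within these groups. The rise of 4.63 was also the largest of the 394 in GFP_TRA over CTL cells, while in CGG_TRA over CGG cells features with no symbol or several rose by 5.48 and 5.01 beside 1.17 and 0.95 without the expansion. The junction itself was at log2 levels of 15.26 ± 0.06 in GFP_TRA cells, against 10.07 ± 0.72 in CTL cells, and 13.78 ± 0.27 in CGG_TRA cells, against 9.89 ± 0.45 in CGG cells (SD, n = 3 each). The gene value of MVD rose by only 0.55 without the expansion and fell by 0.95 with it, so the change of the junction was far larger than that of its gene. In knockdown cells the relative value was 2.24, 2.40 and 1.39 in siTRA arrays and 1.48, 1.08 and 0.89 in CGG_siTRA arrays, within or just below the range of the baseline arrays. The knockdown change was -0.70 ± 0.40 (SE) in siTRA minus CTL cells and 0.02 ± 0.40 in CGG_siTRA minus CGG cells, with adjusted p = 0.495 and 1 by limma's moderated test.

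SLC25A23, a carrier of adenine nucleotides and phosphate in the inner mitochondrial membrane, had a junction (JUC1900060778.hg.1) that came next by the smaller rise, with 2.67 and 2.98. Its relative value was 2.32, 2.51 and 3.07 in GFP_TRA arrays, against 1.29, -1.08 and -0.31 in CTL arrays. It was 0.93, 1.69 and 1.37 in CGG_TRA arrays, against -1.22, -2.21 and -1.53 in CGG arrays. Both overexpressing groups stood clear of their baselines. With knockdown it was -1.56, -1.34 and -1.61 in siTRA arrays, below all CTL arrays, and -0.79, -0.01 and -1.07 in CGG_siTRA arrays, above all CGG arrays. The changes of -1.47 ± 0.47 and 1.03 ± 0.47 (SE) did not pass (adjusted p = 0.220 and 0.983, limma), nor did their difference of 2.50 ± 0.66 (adjusted p = 0.260).

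The exon region of RASSF8, a protein with a Ras-association domain (PSR1200149932.hg.1), and the junction of AP5M1, the medium subunit of the AP-5 adaptor complex (JUC1400050051.hg.1), also stood apart in both comparisons. For RASSF8 the relative value was -1.56, -0.61 and -1.48 in GFP_TRA arrays, against -2.77, -7.31 and -2.41 in CTL arrays. It was -2.38, 0.01 and -0.81 in CGG_TRA arrays, against -3.81, -2.66 and -3.24 in CGG arrays. CTL array 2 lay far below the other baseline arrays here, and the knockdown arrays lay with the overexpressing ones, with changes of 2.58 ± 1.06 and 2.33 ± 1.06 (SE; adjusted p = 0.334 and 0.980, limma). For AP5M1 the relative value was -2.73, -1.77 and -1.76 in GFP_TRA arrays, against -5.23, -3.63 and -6.68 in CTL arrays. It was -4.16, -2.09 and -2.50 in CGG_TRA arrays, against -5.10, -4.59 and -5.03 in CGG arrays. Knockdown changed AP5M1 by 1.83 ± 0.71 and 0.76 ± 0.71 (adjusted p = 0.309 and 1, limma), on the same side as overexpression.

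The other 6 of the 10 features with the largest smaller rise overlapped with their baseline in at least 1 comparison. The junction of UTP6, a component of the small-subunit processome that matures ribosomal RNA (JUC1700063830.hg.1), had relative values of 4.72, 2.16 and 2.92 in GFP_TRA arrays, against 3.26, 0.79 and -3.42 in CTL arrays. In CGG_TRA arrays they were 0.58, 4.93 and 1.21, against -1.88, 1.80 and -1.09 in CGG arrays. The UTP6 arrays of every group were spread widely, down to -6.42 in a CGG_siTRA array and up to 2.22 in another of that group.

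The junction of ZDHHC6, a palmitoyltransferase (JUC1000069489.hg.1), had relative values of 4.87, 4.42 and 5.56 in GFP_TRA arrays, against 5.97, -2.55 and 4.19 in CTL arrays. It had 5.58, 5.51 and 4.69 in CGG_TRA arrays, against 6.53, 2.0 and -0.36 in CGG arrays. A few low baseline arrays carried the difference, and the same held for the junction of ZMYM2, a zinc finger protein (JUC1300047245.hg.1). ZMYM2 had 3.41, 2.80 and 3.38 in GFP_TRA arrays, against 2.94, -3.63 and 3.64 in CTL arrays. It had 3.06, 3.78 and 4.03 in CGG_TRA arrays, against 1.28, 2.74 and -3.83 in CGG arrays. Without CTL array 2 the smaller of the 2 rises turned to -0.13 for ZDHHC6 and -0.09 for ZMYM2.

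FAM91A1, a protein of vesicle tethering at the Golgi (JUC0800054961.hg.1), had relative values of 0.03, 0.00 and 1.13 in GFP_TRA arrays, against -1.98, -2.76 and -0.71 in CTL arrays. It had -0.53, -0.77 and -0.77 in CGG_TRA arrays, against -3.88, -0.22 and -4.18 in CGG arrays. Only the comparison without the expansion was free of overlap. ICE1, a scaffold of the little elongation complex that serves small nuclear RNA genes (JUC0500047794.hg.1), had -1.45, 2.68 and 2.90 in GFP_TRA arrays, against 0.32, -0.49 and -1.83 in CTL arrays. It had 2.86, 2.29 and -0.15 in CGG_TRA arrays, against -1.93, -1.0 and -3.16 in CGG arrays. For ICE1 only the comparison in CGG cells was free of overlap. ACACA, acetyl-CoA carboxylase, which makes the precursor of fatty acids (PSR1700182462.hg.1), had 1.96, 1.46 and 1.59 in GFP_TRA arrays, against 0.30, 0.23 and -3.25 in CTL arrays. It had 0.54, 0.93 and 0.63 in CGG_TRA arrays, against 1.20, -1.40 and -3.68 in CGG arrays. The gene value of ACACA fell by 1.05 and 0.34 in these comparisons, so its rise came in part from the gene value.

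**Figure D3:**
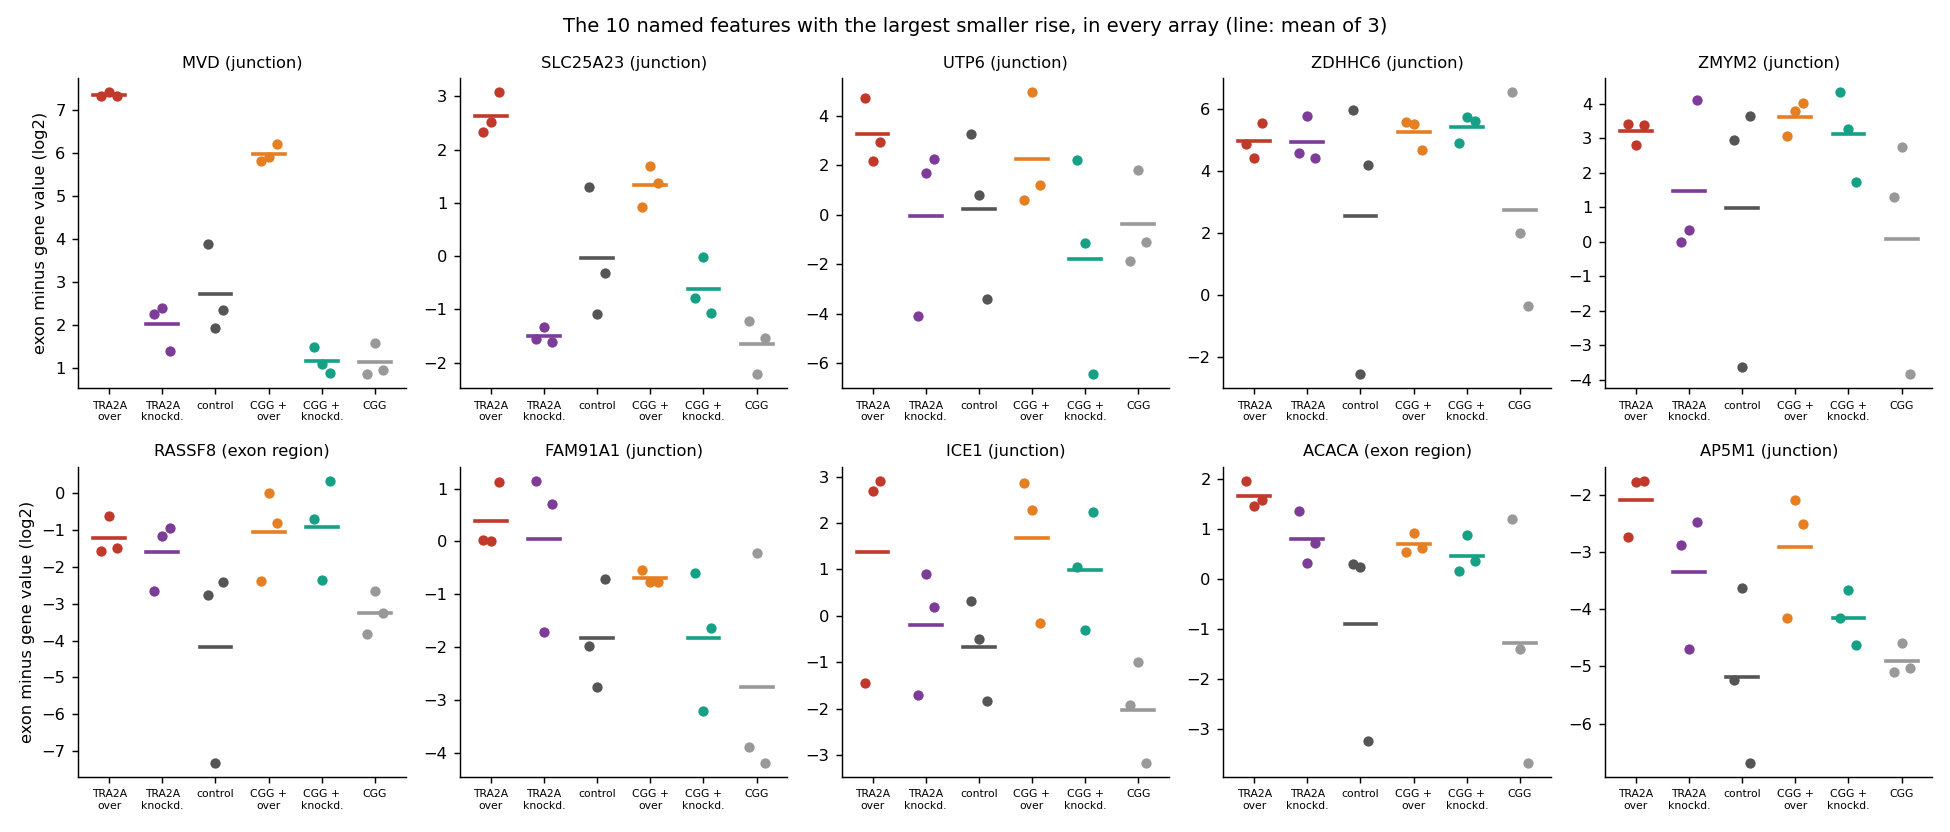
Relative value (exon feature minus gene, log2; each panel has its own scale) of the 10 features with the largest smaller rise, in every array of the 6 groups. Points are arrays and lines are means of 3; MVD and SLC25A23 separate cleanly in both overexpressing groups, and single low CTL or CGG arrays stand out for ZDHHC6, ZMYM2, RASSF8 and ACACA.

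A few other junctions shared the pattern of MVD and were picked after their values were seen. A junction of HK2, hexokinase 2, which starts glycolysis (JUC0200053235.hg.1), had mean log2 levels of 14.86 ± 0.28 in GFP_TRA cells, against 12.37 ± 0.09 in CTL cells, and 13.65 ± 0.32 in CGG_TRA cells, against 12.27 ± 0.45 in CGG cells. With knockdown its levels were 12.46 ± 0.32 in siTRA cells and 12.20 ± 0.09 in CGG_siTRA cells (SD, n = 3 each), close to the baselines. A junction of CACNA1H, a T-type calcium channel subunit (JUC1600047645.hg.1), had 11.29 ± 0.02 in GFP_TRA cells, against 9.51 ± 0.71 in CTL cells, and 10.53 ± 0.16 in CGG_TRA cells, against 9.05 ± 0.25 in CGG cells. Its knockdown levels were 8.94 ± 0.74 in siTRA cells and 9.49 ± 0.59 in CGG_siTRA cells. In a junction whose cluster carries several symbols (JUC1700075933.hg.1), the relative value was 3.33, 3.12 and 3.13 in GFP_TRA arrays and -0.71, -0.73 and -0.94 in siTRA arrays, against -0.56, -0.24 and -0.56 in CTL arrays. It was 1.74, 0.86 and 1.96 in CGG_TRA arrays and -1.46, -0.15 and -1.51 in CGG_siTRA arrays, against -0.32, -0.31 and 0.15 in CGG arrays.

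A relative value can rise because the feature rose or because its gene fell. Of the 394 features, 247 rose by 0.75 or more in their own value in both comparisons, and junctions were 80.2% of these. Their opposite were 45 features in 16 genes whose gene value fell by at least 0.5 in both comparisons, 11.4% of the rising features, against 0.43% of all features. Among the falling features the mirror image held, since 137 of 765 (17.9%) sat in genes that rose by at least 0.5 in both, against 1.96% of all. The gene value is used in the rule, so these shares describe how the rule picks features.

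All 5 genes with 3 or more rising features belonged to the group whose gene value fell. LRBA, a large scaffold protein that guards CTLA4 from degradation, held 10, 8 of them exon regions. FBN1, which encodes fibrillin 1 of the extracellular matrix, held 6, MYLK, the myosin light chain kinase, 5, all junctions, CRYAB, the small heat shock protein alpha B-crystallin, 4, and RIN2, an exchange factor of RAB5, 4. Their gene values in GFP_TRA over CTL cells fell by 1.10 for LRBA, 1.02 for FBN1, 1.37 for MYLK, 1.96 for CRYAB and 1.09 for RIN2. In CGG_TRA over CGG cells they fell by 0.99 for LRBA, 1.32 for FBN1, 0.57 for MYLK, 1.33 for CRYAB and 0.82 for RIN2. The own values of these features moved less than the relative ones in GFP_TRA over CTL cells, and in CGG_TRA over CGG cells some of them rose.

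CRYAB had the largest fall of the gene value among the 5. Its gene value was 6.0, 6.31 and 5.92 in GFP_TRA arrays, against 7.21, 8.55 and 8.35 in CTL arrays. It was 6.31, 6.88 and 6.03 in CGG_TRA arrays, against 7.21, 8.03 and 7.97 in CGG arrays. All overexpressing arrays lay below all baseline arrays, while the 4 rising features changed in their own value by only -0.37 to -0.23 and by -0.45 to 0.22. The other 6 features of CRYAB past the filter had median relative changes of -0.36 and -1.24, and 2 of them fell by the rule. In knockdown cells the gene value of CRYAB was 8.09, 7.75 and 8.14 in siTRA arrays and 7.95, 7.56 and 7.51 in CGG_siTRA arrays, within the range of the baselines.

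In LRBA the own values of the 10 features changed by -0.31 to 0.07 in GFP_TRA over CTL cells and by -0.19 to 0.25 in CGG_TRA over CGG cells. The other 82 features of LRBA past the filter were also higher relative to the gene value, with median relative changes of 0.63 and 0.42. In RIN2 the 4 features changed by -0.13 to 0.11 and by -0.05 to 0.15 in their own value, and RIN2 was at 9.30, 9.38 and 9.14 at the gene level in GFP_TRA arrays, against 10.11, 10.46 and 10.52 in CTL arrays. In MYLK the gene value was also lower in the knockdown arrays, at 7.84, 7.83 and 7.65 in siTRA arrays, against 9.23, 9.69 and 9.46 in CTL arrays, and at 7.94, 7.56 and 7.49 in CGG_siTRA arrays, against 9.10, 8.06 and 8.40 in CGG arrays. The own values of its 5 junctions changed by -0.59 to -0.17 in GFP_TRA over CTL cells, but were higher by 0.18 to 0.82 in CGG_TRA over CGG cells. Their relative values were higher with knockdown too, by 0.52 to 1.40 and by 0.70 to 1.22. In FBN1 the own values of the 6 features changed by -0.23 to 0.08 without the expansion and by -0.45 to 0.91 with it.

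Other hosts of this kind were TGM2, a transglutaminase, whose gene value fell by 1.76 and 1.43, ITGB3, an integrin beta subunit, by 2.06 and 1.34, SERPINA1, the alpha-1 antitrypsin gene, by 1.49 and 0.89, and IL6, the cytokine, by 1.38 and 1.07. They held 1, 1, 2 and 2 rising features in the same order. Of the 69 features free of overlap in both comparisons, 18 lay in genes that fell and 28 rose in their own value in both, 22 of the 28 being junctions.

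**Figure D4:**
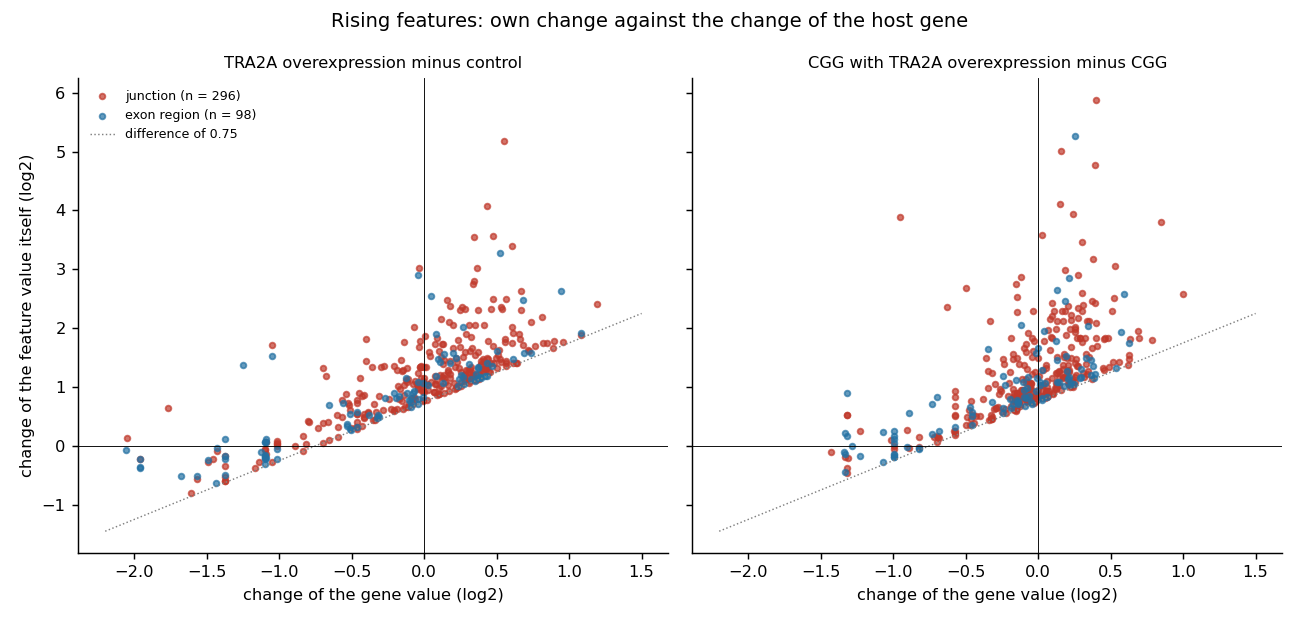
Change of the feature's own log2 value against the change of its gene value for the 394 rising features, in GFP_TRA minus CTL cells on the left and CGG_TRA minus CGG cells on the right, with junctions in red, exon regions in blue and the dotted line at a difference of 0.75. Vertical rows of points left of 0 are features of 1 gene, such as CRYAB at -1.96 and -1.33, whose own value hardly moved, and the junction of MVD is the highest point on the left at 5.18.

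The hosts were mostly different genes. The 394 features lay in 352 of 26368 transcript clusters, of which 329 held 1, 18 held 2 and 5 held 3 or more. They carried 299 single gene symbols, of which 282 are listed for Chlorocebus sabaeus in RefSeq, while 37 features had no symbol and 18 had several. A host had a median of 26 features past the filter, and the 394 were 3.37% of the 11705 features of all hosts. The remaining features of the hosts had a median relative change of -0.03 in both comparisons, and 20 hosts also held features that fell. Some features were copies of each other in the table. Junctions of RANBP2, a nuclear pore protein, and of the RGPD genes derived from it had 7 identical profiles, and SMG1, the kinase of nonsense-mediated decay, shared 1 profile with its pseudogenes and NPIPL3 over 6 features, so the 394 held 382 distinct profiles and the signal of near-identical genes cannot be told apart.

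Genes of splicing and of known Tra2 regulation held rising features at a share near that of all features, with 6 of 3156 (0.190%) over 5 lists, against 0.163%. Of 189 features in 6 genes known as targets of Tra2 proteins, 0 rose and 1 fell, a junction of NASP, a histone chaperone (JUC0100053723.hg.1), by 1.71 and 0.85. Its relative value was 0.49, -0.71 and -0.01 in GFP_TRA arrays, against 3.11, 0.69 and 1.09 in CTL arrays, and -0.49, 0.80 and -0.30 in CGG_TRA arrays, against 0.34, 1.97 and 0.24 in CGG arrays, so that only the arrays without the expansion were free of overlap. Of 482 features in 16 genes of SR proteins and their relatives, 0 rose and 0 fell. At the overall share of 0.163%, fewer than 1 rising feature falls among so many. Of 236 features in 8 genes of SR protein kinases 1 rose (0.424%) and 2 fell, of 1246 in 38 genes of hnRNPs and other splicing regulators 4 rose (0.321%) and 5 fell, and of 1003 in 32 genes of the core spliceosome 1 rose (0.0997%) and 1 fell. The median relative changes of these 5 lists lay between -0.18 and -0.06 in GFP_TRA over CTL cells and between -0.12 and -0.05 in CGG_TRA over CGG cells, against -0.10 and -0.06 for all features.

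The rising features of these lists overlapped between groups in at least 1 comparison. The junction of CLK1, a kinase that phosphorylates SR proteins (JUC0200081909.hg.1), had relative values of 4.37, 3.15 and 3.47 in GFP_TRA arrays, against 3.20, 2.01 and 2.91 in CTL arrays, and 3.28, 3.92 and 3.38 in CGG_TRA arrays, against 1.69, 2.29 and 3.97 in CGG arrays. The junction of TIA1, an RNA-binding protein of stress granules that aids weak splice donor sites (JUC0200088702.hg.1), had -3.12, -2.18 and -3.83 in GFP_TRA arrays, against -3.05, -5.28 and -4.33 in CTL arrays, and -3.06, -3.69 and -2.35 in CGG_TRA arrays, against -6.19, -3.90 and -2.65 in CGG arrays. Their rises of 0.88 to 1.21 were near the spread within groups. PTBP2, the neuronal polypyrimidine tract protein, rose at 1 junction (1.38 and 1.58) and fell at 3 other features. The gene value of PTBP2 rose by 0.81 in GFP_TRA over CTL cells and by 0.997 in CGG_TRA over CGG cells. Its 31 features past the filter other than this junction had median relative changes of -0.55 and -0.38. The 3 relative falls thus came in part from the gene value. The junction of SNRPF, a core Sm protein, had rises of 2.33 and 1.37, and the exon regions of HNRNPA1, an hnRNP that opposes SR proteins, and of CELF1, a regulator that binds GU-rich RNA, had rises of 2.50 and 0.95, and of 0.76 and 0.76. Without CTL array 2 the smaller rise turned to -0.46 for PTBP2 and to -0.05 for CELF1.

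In the remaining lists, junctions of LIMA1, an actin-binding protein, EZH2, the methyltransferase of the Polycomb complex, and BUB1B, a kinase of the spindle checkpoint, rose. The list of actin cytoskeleton genes held 539 features, that of chromatin regulators 1519 and that of DNA replication and mitosis 1083, with 1 rising feature each. These were 0.186%, 0.0658% and 0.0923% in the same order, against 0.163% of all features. The junction of LIMA1 (JUC1200064856.hg.1) was at -2.77, -2.13 and -2.43 in GFP_TRA arrays, against -3.20, -3.52 and -2.89 in CTL arrays, and at -2.77, -2.41 and -2.52 in CGG_TRA arrays, against -4.11, -2.84 and -3.09 in CGG arrays. It was the only rising feature of these 12 lists whose groups were free of overlap in both comparisons, by small margins. The rise of BUB1B turned to -0.55 without CTL array 2. Ribosomal protein genes (312 features), interferon genes (160), stress-response genes (348) and genes of proteins linked to CGG repeat RNA (440) held 0 rising features. At the overall share of 0.163%, fewer than 1 rising feature falls in each of these lists, so nothing is read from the absence. Of the marker lists, that of fibroblast-like cells held the 6 of FBN1 and, downward, 7 features of COL1A1, and that of neurons held 1 in each direction, both in SYT1.

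The knockdown arrays ask whether these features move the other way when TRA2A is low. Their comparisons share the CTL and CGG arrays with those that chose the features, so any deviation of those baseline arrays enters both, and the values are set side by side. The median relative change of the 394 features was 0.50 in siTRA over CTL cells and 0.49 in CGG_siTRA over CGG cells, both upward, against -0.08 and -0.01 for all features. The falling features had medians of -0.51 and -0.29, downward. The median rises of the 394 with overexpression were 1.03 and 1.06. A rise of at least 0.75 with knockdown was seen for 140 rising features (35.5%) in siTRA over CTL cells, where 2.63% of all features did, and for 144 (36.5%) in CGG_siTRA over CGG cells, where 2.05% did. A fall of at least 0.75 was seen for 12 (3.05%) in siTRA over CTL cells, beside 6.02% of all features, and for 8 (2.03%) in CGG_siTRA over CGG cells, beside 1.34%. All 3 siTRA arrays lay above all CTL arrays for 40 of the 394 (10.2%), against 4.16% of all features, and all CGG_siTRA arrays above all CGG arrays for 50 (12.7%), against 4.46%. The part of the shared arrays in these counts was not tested.

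**Figure D5:**
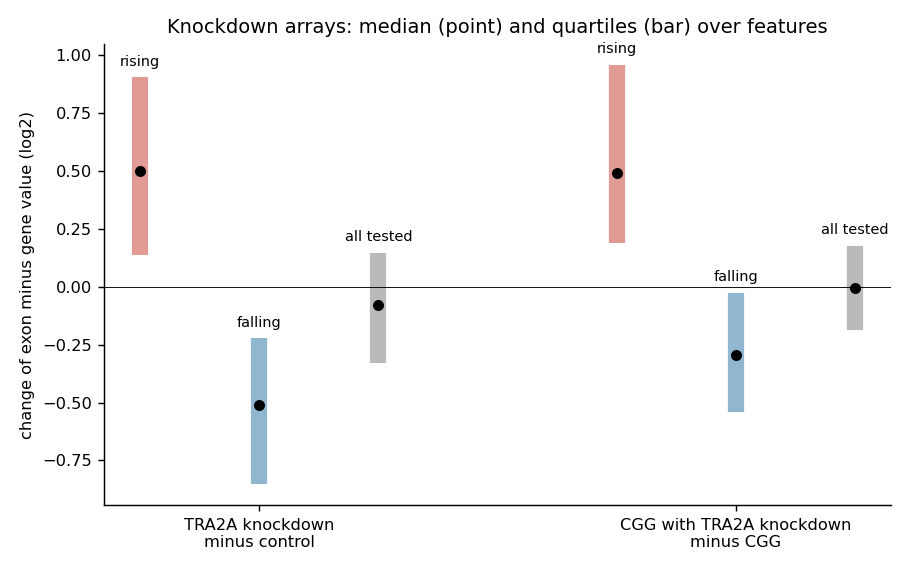
Median (black point) and quartiles (bar) of the change in relative value with TRA2A knockdown, for rising features (red, n = 394), falling features (blue, n = 765) and all features (grey, n = 241965), in siTRA minus CTL cells on the left and CGG_siTRA minus CGG cells on the right. The rising features lie above 0 in both comparisons, with medians of 0.50 and 0.49, and the falling ones below 0.

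Of the 394, 67 rose by 0.75 in both knockdown comparisons, where 0.186% of all features did, 150 in 1 of them and 177 in neither. The 67 were 17.0% of the rising features and 15.3% of the 437 features that met the same rule with knockdown, of which 61.8% were junctions. They had the widest spread, with a median SD within groups of 1.02, against 0.92 for those that rose in 1 knockdown comparison and 0.64 for the 154 that rose in neither and were not below the baseline in both. Features that were below the baseline in both knockdown comparisons, opposite to overexpression, numbered 23 (5.84%), against 29% of all features, and 2 (0.508%) were below it by at least 0.75 in both, against 0.163% of all. The baseline arrays that the comparisons share bear on these counts as well. One of the 2 was a junction of DYNLT2B, a dynein light chain (JUC0300079288.hg.1), named after its values were seen. Its relative value was -0.21, 0.24 and -1.25 in GFP_TRA arrays and -5.32, -1.09 and -2.89 in siTRA arrays, against -1.24, -0.93 and -3.22 in CTL arrays. It was -0.52, -0.62 and 0.58 in CGG_TRA arrays and -2.49, -3.36 and -4.44 in CGG_siTRA arrays, against -3.59, -1.70 and -0.73 in CGG arrays. The knockdown arrays of DYNLT2B overlapped with their baselines, and its changes of -1.30 ± 0.96 and -1.42 ± 0.96 (SE) did not pass (adjusted p = 0.617 and 1, limma).

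No knockdown test called any of the 394 features. With limma's moderated test and the Benjamini-Hochberg adjustment over all 241992 features, 0 were called in siTRA minus CTL cells, where 0.0913% of all features were higher and 0.186% lower, and 0 in CGG_siTRA minus CGG cells, where 0.00455% were higher and 0% lower. The mean of the 2 knockdown changes called 0 of the 394, beside 0.0574% of all features higher and 0.0517% lower. At an unadjusted p under 0.05, 47 features were higher (11.9%) and 6 lower (1.52%) in siTRA over CTL cells, against 3.51% and 8.95% of all features. In CGG_siTRA over CGG cells 46 were higher (11.7%) and 1 lower (0.254%), against 2.56% and 2.49%. For the mean change 85 were higher (21.6%) and 6 lower (1.52%), against 2.37% and 5.37% of all features. These comparisons share the CTL and CGG arrays that chose the features, so nothing is read from the differences to all features. The smallest adjusted p in siTRA minus CTL cells belonged to an exon region of CEP70, a centrosomal protein (PSR0300194016.hg.1), with a change of 2.04 ± 0.48 (SE, adjusted p = 0.0996). In CGG_siTRA minus CGG cells and for the mean change it belonged to an exon region of SLC35E3, a member of a sugar transporter family (PSR1200200878.hg.1), with 1.30 ± 0.24 (adjusted p = 0.253) and 0.77 ± 0.17 (adjusted p = 0.132). SLC35E3 was at -1.65, -1.58 and -1.11 in CGG_siTRA arrays and -1.04, -1.42 and -1.67 in CGG_TRA arrays, against -2.86, -2.47 and -2.92 in CGG arrays. With the expansion, its arrays with raised and lowered TRA2A thus lay together above the CGG arrays, which took part in choosing the features. In siTRA minus CTL cells its change was only 0.24.

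The features themselves, without subtraction of the gene, gave more calls, both among the 394 and among all features. In siTRA over CTL cells 22 of the 394 were higher (5.58%) and 3 lower (0.761%) by their own log2 value, by limma adjusted over all features, against 5.67% and 4.03% of all features. The share that was higher was thus close to that of all features. In CGG_siTRA over CGG cells 2 were higher (0.508%) and 0 lower, against 0.269% and 0.819% of all. For the mean of the 2 changes 21 were higher (5.33%) and 2 lower (0.508%), against 3.1% and 3.45% of all. These shares too rest on the CTL and CGG arrays that chose the features. The largest change among the calls in siTRA over CTL cells was that of a junction of HEATR5B, a protein of endosomal transport (JUC0200069851.hg.1), with 2.83 ± 0.67 (SE, adjusted p = 0.0138, limma). The 2 calls in CGG_siTRA over CGG cells were a junction with no symbol (JUC0500071045.hg.1), with 3.26 ± 0.70, and the exon region of SLC35E3, with 1.86 ± 0.25 (SE; adjusted p = 0.0306 and 0.00122, limma). SAT1, the acetyltransferase that degrades polyamines, was higher at 1 junction and 1 exon region, by 1.61 ± 0.40 and 1.54 ± 0.42, where its gene value was higher by 1.19. The 3 lower ones were features of RIN2, ANK2 and MYLK. These were higher or lower together with their gene in most cases, and the genes given here were named after their values were seen.

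The arrays of CGG_siTRA and siTRA cells, both low in TRA2A, entered the rule only through the mean level. Their comparison used a spread estimated over all 18 arrays, including those whose rises chose the features. It called 0 of the 394, beside 0.0855% of all features higher and 0% lower, and at an unadjusted p under 0.05, 13 were higher (3.30%) and 10 lower (2.54%), against 2.41% and 1.53% of all features. Fitted on these 6 arrays alone it also called 0 of the 394, beside 0.0413% of all features higher and 0% lower, and at an unadjusted p under 0.05, 27 were higher (6.85%) and 17 lower (4.31%), against 2.55% and 1.89% of all. The knockdown change did not pass as different between cells with and without the expansion for any of the 394 (0 called by limma). Of all features, 0.0112% were called higher and 0.0103% lower. At an unadjusted p under 0.05, 9 of the 394 were higher (2.28%) and 5 lower (1.27%), against 6.6% and 3.09% of all features. This difference also used the CTL and CGG arrays that chose the features. SLC25A23 (2.50 ± 0.66) and an exon region of FBN1 (PSR1500168568.hg.1; 1.5 ± 0.40, SE) had the smallest p here, with adjusted p = 0.260 and 0.261.

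At the edge of the rule, features of TIMM21, MYLK and DOP1B had a smaller rise of 0.75, and features of LRBA and TMEM41B and one with several symbols had 0.747 and were left out. With the threshold at 0.70 there were 499 rising and 1059 falling features, and with 0.80 there were 306 and 546. The falling features with the largest smaller fall were in FAM210A, a mitochondrial protein (-3.27 and -2.29), ILF2, a double-stranded RNA-binding partner of NF90 (-2.19 and -2.14), and GLMN, an inhibitor of a ubiquitin ligase (-2.23 and -2.04). The relative value of FAM210A was -4.48, -3.85 and -2.17 in GFP_TRA arrays, against 0.32, -0.93 and -0.08 in CTL arrays, and -5.24, -2.28 and -5.40 in CGG_TRA arrays, against -1.29, -3.43 and -1.33 in CGG arrays.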

How the data were processed

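Total RNA of COS-7 cells was measured on 18 Clariom D arrays. The authors deposited log2 values per gene and per exon feature, made by SST-RMA per the file headers, and the submitters' processing notes list RMA and Transcriptome Analysis Console (no versions); the genome build is not given in the sources used here. The exon table holds 318024 exon regions and 165844 junctions, 483868 features in all. Its gene values equal the gene-level ones, and gene symbols come from the platform annotation. No intensities or detection calls were used. Groups and array numbers were read from the titles.

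Relative values, the rule and group means were computed in R 4.3.3 with data.table (version 1.17.8). Knockdown comparisons were fitted with limma 3.58.1 (lmFit, eBayes) on the relative values of 241992 features over 6 group means and all 18 arrays, two-sided, with Benjamini-Hochberg adjustment over all features and a call at an adjusted p under 0.05. The fits were tested on simulated data. Named were the 10 features with the largest smaller rise in genes with 1 regular symbol, genes with 3 or more features, the 3 features on either side of the threshold, the 3 largest falls and members of the gene lists. The members and lists were chosen with earlier results of these data known. Same-numbered arrays did not deviate together (correlations from -0.327 to 0.221, 8 of 45 over 0.1), so the numbers were not used as pairs. Alternatives were other thresholds, filters, references for a feature, normalizations and fits, and leaving out each array. No nucleotide sequence or genome position is given, since no genome was used here.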

Additional observations from a re-analysis of the deposited data

How the results depend on the processing

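The rising and falling features numbered 1474 and 4447 at a threshold of 0.5, 134 and 139 at 1.0, 938 and 2199 with no filter on the mean, 74 and 234 above the 75th percentile, 1052 and 1087 by the feature value itself, and 247 and 214 where the feature value had also moved (chosen after seeing the data). Falling features numbered 337 against the median feature of the gene, 1190 with the median of the 3 arrays, and 457 after centring (chosen after seeing the data). With each array left out the counts ranged from 301 to 632 rising and from 712 to 1272 falling. The rule applied to the smallest same-numbered difference left 19 and 31, the lowest counts of all settings tried. A replicate block cannot change a difference of group means in this balanced design, so the 394 and 765 stand by construction under it, and it called 0 of the 394 in all 5 fits.

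Calls among the 394 went from 0 to 1 in siTRA minus CTL cells with rehybridised arrays as a covariate, to 1 there and 1 for the mean knockdown effect against the median feature of the gene, and to 25, 2 and 23 (siTRA minus CTL, CGG_siTRA minus CGG, mean) by the feature value itself, of which 22, 2 and 21 were higher (5.58%, 0.508% and 5.33%, against 5.67%, 0.269% and 3.1% of all features). With an array left out they ranged from 0 to 2 in siTRA minus CTL cells and from 0 to 1 for the mean. All other fits run called 0. Except for the feature value itself, the share of all features called in these fits is not given in this section, so nothing is read from these counts.

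The smaller rise of a named feature turned below 0 by the feature value itself for CRYAB (-0.45, -0.36, -0.23 and -0.23), RIN2 (-0.13, -0.05 and -0.033), FBN1 (-0.45, -0.23, -0.38, -0.0067 and -0.053), MYLK (-0.59, -0.17, -0.35, -0.59 and -0.54) and LRBA (-0.19, -0.19, -0.23, -0.21, -0.31, -0.053, -0.17 and -0.073). A falling gene value makes the own change smaller than the relative one by construction, but does not fix its sign. Other features of RIN2 (lowest value 0.067), FBN1 (0.08) and LRBA (0.063 and 0.053) stayed above 0 in all settings. Against the median feature the smaller rise turned below 0 for MYLK (-0.16, -0.16 and -0.11) and LRBA (-0.01), and with the median of the arrays for BUB1B (-0.17). With each array left out it ranged from -0.13 to 2.54 for ZDHHC6, from -0.093 to 3.54 for ZMYM2, from -0.46 to 1.58 for PTBP2, from -0.047 to 0.763 for CELF1 and from -0.55 to 1.09 for BUB1B, each lowest without CTL array 2; the cause was not tested. Of the other values of named features, 777 moved by less than the spread between arrays and 21 by more.

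The share of promoters or regions with a motif was planned and not run, since no genome was used here. The 394 features had a median SD within groups of 0.79, above the threshold of 0.75 that chose them, and with 3 arrays a group this limits what a test of 1 feature can show.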
